A study of Homo sapiens with 8 samples.

Results

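The integrin and laminin genes are the 2 families that join an epithelial cell to the sheet of matrix beneath it. Their genes were taken by symbol, as ITGA or ITGB followed by a number or letter, without the integrin-binding proteins, and LAMA, LAMB or LAMC followed by a number. This choice was made with earlier results of these data known. The rule found 38 genes among 32511 annotated on the array, 26 integrin and 12 laminin genes, read by 51 probes, and 34 of them passed the filter on low signal and were tested. The other 4, ITGA8, ITGB3, ITGB6 and LAMB4, had a mean under 3 on the log2 scale, and the test does not cover them.

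An integrin is a receptor made of an alpha and a beta subunit. The alpha subunit largely sets the ligand, which is laminin, collagen, proteins with an Arg-Gly-Asp (RGD) motif such as fibronectin and vitronectin, or a counter-receptor on another cell, and the beta subunit links the receptor to the cytoskeleton. A laminin is a trimer of an alpha, a beta and a gamma chain, each from its own gene, and is the main glycoprotein of the basement membrane on which prostate epithelium rests. Loss of ITGB4 and of the laminin it binds is a known feature of the step from normal prostate gland to carcinoma.

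RNA of LNCaP cells, an androgen-responsive line grown from a human prostate cancer metastasis, was measured on 8 one-colour arrays. The cells had been transfected transiently for 72 h with 30 nM of siGATA2, a single siRNA against the transcription factor GATA2, or of siControl, a scrambled siRNA, in the same transfection reagent, with 4 arrays per group. Both groups therefore carry the effect of transfection, and the comparison rests on a single cell line. The submitters call the arrays of a group biological replicates, and their labels name no culture or day.

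GATA2 itself did not check the labels. Its normalized log2 signal was 12.61, 12.54, 11.57 and 11.40 on the arrays labelled siGATA2 and 11.74, 11.28, 11.09 and 11.29 on those labelled siControl, a log2 fold change of 0.68 (SE 0.312, limma adjusted p = 0.153), so on these arrays every direction rests on the labels. All 8 LNCaP markers, among them KLK3, KLK2, TMPRSS2, FOLH1, EPCAM, KRT8 and KRT18, were well above background on all 8 arrays. Of 16 markers of other cell types, KRT5, COL3A1 and LUM reached that level on 0 arrays, while VWF, CDH5, COL1A1, CD14 and PTPRC reached it on 8.

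The arrays did not spread evenly. Across 18428 genes well above background on every array, siGATA2 arrays 1 and 2 differed from each other by a median of 0.0783 on the log2 scale and arrays 3 and 4 by 0.0674, but the 4 differences across these pairs were 0.366 to 0.397. siControl arrays 2, 3 and 4 lay 0.0789 to 0.111 apart, and siControl array 1 lay 0.289 to 0.306 from them. This division follows the letters in the sample titles, with A or B on siGATA2 arrays 1 and 2 and siControl array 1, and D to G on the other 5. Whether arrays of a close pair came from separate cultures was not tested, and p-values then measure only the spread between arrays. Probes well above background numbered 34020 to 36974 on 6 arrays, but 28498 on siControl array 1 and 24319 on siControl array 3.

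Of the 34 members tested, 7 fell and 11 rose on the arrays labelled siGATA2 at an adjusted p under 0.05 (limma, Benjamini-Hochberg over 28746 genes), and 16 were not called. This was 20.6% lower and 32.4% higher, against 14.2% lower and 12.4% higher among all genes. At 2-fold or more 5 members fell and 6 rose, which is 14.7% and 17.6% of members against 7.12% and 4.56% of all genes. The signals of the groups did not overlap for 20 members, or 58.8%, against 32.6% of all genes. The median log2 fold change was 0.29 over members and 0.09 over all genes. Counted over probes, 11 of the 44 tested probes of members were lower and 12 higher, beside 14.5% lower and 12.6% higher among all 35363 probes.

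Counted by family, laminin genes gave 3 lower and 5 higher calls among 11 tested, or 27.3% and 45.5%. All 8 reached 2-fold, and the median log2 fold change of the family was 1.25. Integrin genes gave 4 lower and 6 higher among 23 tested, or 17.4% and 26.1%. Of these, 2 lower and 1 higher reached 2-fold, or 8.7% and 4.35%, and the family median was 0.25. Among all genes 14.2% were lower and 12.4% higher, and 7.12% and 4.56% at 2-fold. Calls in both directions are therefore not particular to either family. Within the laminin alpha, beta and gamma chains alike 1 gene fell and at least 1 rose. These counts describe the lists and were not tested against each other.

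**Figure D1:**
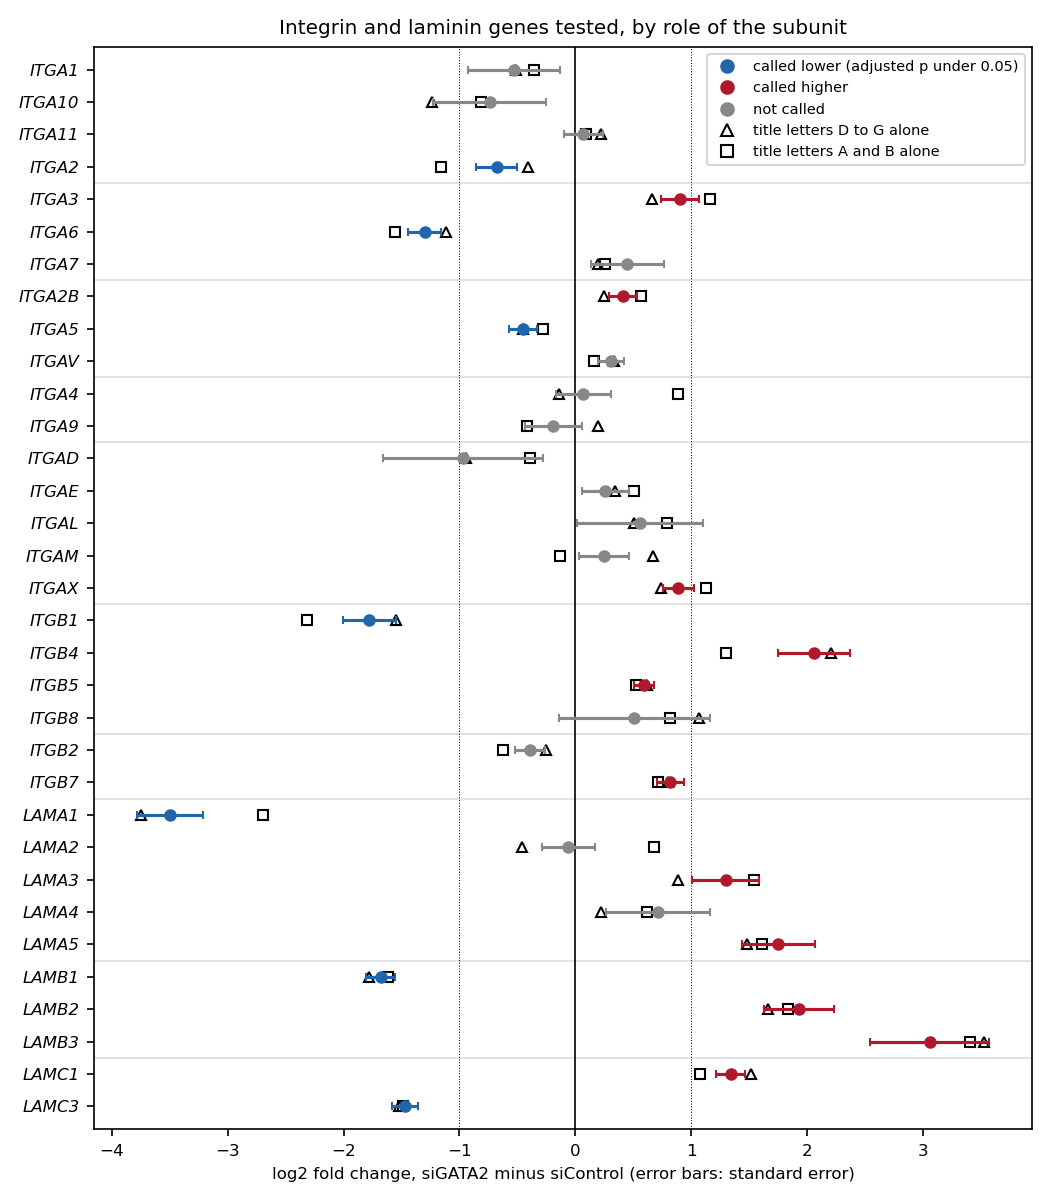
Log2 fold change of 33 of the tested genes, siGATA2 minus siControl, with its standard error (n = 4 arrays per group), grouped by role of the subunit. Blue genes were called lower, red higher and grey not called. Open triangles and squares give the same difference among arrays with title letters D to G (2 against 3) and A or B (2 against 1). Dotted lines mark a 2-fold change. LAMA1 at -3.50 and LAMB3 at 3.06 lie at the ends, and all 18 coloured genes keep their sign in both sets of letters.

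Among the laminin alpha chains, LAMA1 fell while LAMA3 and LAMA5 rose. LAMA1, the alpha chain of the laminin of early embryos and a few adult epithelia, stood at 5.19, 4.84, 5.27 and 5.39 on the siGATA2 arrays and at 7.82, 9.12, 8.90 and 8.86 on the siControl arrays. The lowest siControl array, number 1, still lay more than 2 log2 units above the highest siGATA2 array. The change was -3.50 (SE 0.286, adjusted p = 9.75e-05), 11.3-fold lower and the largest of any member, and -2.11 with normexp background correction of the raw signals. A second LAMA1 probe cleared the background on 2 of 4 siControl arrays and on 0 siGATA2 arrays.

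LAMA5, the alpha chain of the laminin most widely found in adult epithelium, read 13.23, 13.29, 12.25 and 12.28 with siGATA2 and 11.59, 10.77, 10.78 and 10.91 with siControl. The groups were separate, with siControl array 1 the highest of its group. Its log2 fold change was 1.75 (SE 0.315, adjusted p = 0.00467). LAMA3, which with LAMB3 is part of the laminin under epithelial hemidesmosomes, had 14.53, 14.59, 13.51 and 13.53 against 12.99, 12.77, 12.48 and 12.72. The increase of 1.30 (SE 0.289, adjusted p = 0.0123) was carried more by the arrays with letters A or B, at 1.54, than by those with D to G, at 0.89, a contrast that was not tested. LAMA4, an alpha chain of vessel walls and mesenchyme, was not called (0.71, adjusted p = 0.291), and its 4 probes disagreed, with one at -1.54 (adjusted p = 0.0210). LAMA2, the alpha chain of muscle, was at -0.06 (adjusted p = 0.867) and well above background on 3 of 8 arrays.

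The beta chains moved apart as well. LAMB1, the beta chain shared by most laminins of development, fell. Its signal was 8.37, 8.47, 8.20 and 8.36 on siGATA2 arrays and 10.18, 10.07, 9.76 and 10.10 on siControl arrays. Neither group spread over more than 0.5 log2 units, and the change was -1.68 (SE 0.126, adjusted p = 6.72e-05). LAMB2, which takes the place of LAMB1 in laminins of nerve, kidney and muscle, rose from 14.94, 14.18, 14.09 and 14.22 to 16.77, 16.74, 15.85 and 15.80. That difference was 1.93 (SE 0.302, adjusted p = 0.00229), and a second LAMB2 probe gave 2.00 (adjusted p = 0.00167).

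LAMB3 showed the largest increase of the list. It read 7.80, 8.34, 9.47 and 9.55 with siGATA2 and 4.58, 6.22, 6.15 and 5.97 with siControl, where it was well above background on 3 of 4 arrays. Within each group the arrays with letters A or B lay below those with D to G. The log2 fold change was 3.06 (SE 0.514, adjusted p = 0.00328), 8.34-fold higher, and it was 3.53 among letters D to G, 3.41 among A and B and 2.03 with normexp background correction.

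Of the gamma chains, LAMC1, the common partner of most trimers, rose, and LAMC3, a chain of restricted expression, fell. LAMC1 had 13.42, 13.56, 13.78 and 13.69 on siGATA2 arrays against 12.36, 12.40, 12.08 and 12.24, a change of 1.34 (SE 0.125, adjusted p = 0.000175). LAMC3 had 8.30, 8.56, 8.30 and 8.33 against 10.04, 9.74, 9.82 and 9.75, a change of -1.47 (SE 0.116, adjusted p = 8.79e-05). Both genes held all arrays of a group close together. A second LAMC3 probe fell too (-1.82, adjusted p = 2.37e-05), whereas another, dimmer one gave -0.13 (adjusted p = 0.699).

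**Figure D2:**
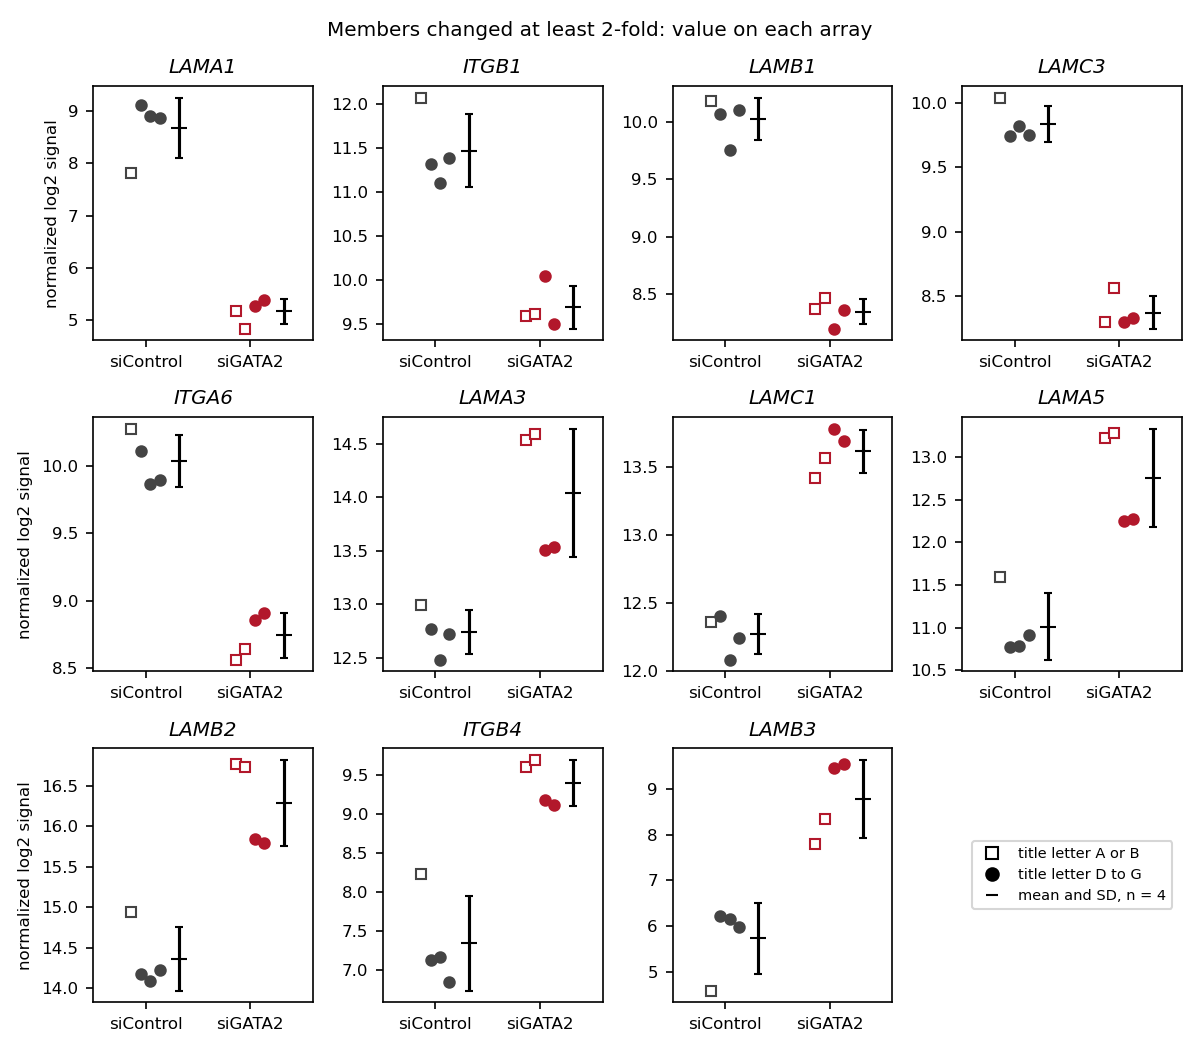
Normalized log2 signal on each of the 8 arrays for the 11 members changed at least 2-fold, ordered by fold change, each panel on its own axis, which does not start at 0. Open squares are arrays with title letters A or B, filled circles those with D to G, and bars give the mean and SD of 4 arrays. The groups are separate in every panel. Among the siGATA2 arrays the letters lie furthest apart in LAMB3, LAMA3, LAMA5 and LAMB2, and by less in other panels such as ITGB4 and ITGA6.

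Set by trimer, the chains of a laminin did not always move together. Of the chains LAMA1, LAMB1 and LAMC1, which form the founding member of the family, LAMA1 and LAMB1 fell and LAMC1 rose. Of LAMA5, LAMB2 and LAMC1, which also form a trimer, all 3 rose. Transcript signals say nothing of which trimers were assembled or secreted.

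The integrin subunits that bind laminin divided in the same manner. ITGB1, the beta subunit with the most alpha partners, fell. It read 9.59, 9.62, 10.05 and 9.51 on siGATA2 arrays and 12.07, 11.32, 11.10 and 11.39 on siControl arrays. All siControl values lay at least 1 log2 unit above the highest siGATA2 value. The change was -1.78 (SE 0.228, adjusted p = 0.000848), 3.42-fold lower. ITGA6, a laminin-binding alpha subunit that pairs with ITGB1 or ITGB4, fell as well, from 10.28, 10.11, 9.87 and 9.90 to 8.56, 8.64, 8.86 and 8.91. Its change was -1.30 (SE 0.140, adjusted p = 0.000354), and a second ITGA6 probe gave -1.29 (adjusted p = 0.00384).

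ITGB4, the hemidesmosomal beta subunit whose sole known alpha partner is ITGA6, rose. Its values were 9.61, 9.70, 9.18 and 9.12 with siGATA2 and 8.23, 7.12, 7.16 and 6.84 with siControl. siControl array 1 was the highest of its group by about 1 log2 unit. The change was 2.06 (SE 0.308, adjusted p = 0.00183), or 2.21 among arrays with letters D to G and 1.30 among those with A or B. ITGA3, a second laminin-binding partner of ITGB1, rose by less (0.90, SE 0.164, adjusted p = 0.00477), with 7.97, 7.88, 7.58 and 7.35 against 6.69, 6.91, 6.63 and 6.93. ITGA7, the laminin receptor subunit of muscle, was not called (0.45, adjusted p = 0.328).

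The 250 bases before the annotated start of the members were searched for GATA sites. These were spelled AGATAA or AGATAG and likewise TGATAA or TGATAG on either strand. The RefSeq table (GRCh38.p14) held 33 such windows for 26 of the 38 members, since some genes have several starts. A match stood in 8 windows, or 24.2%, beside 22.3% of 35116 windows of all genes. By call, 3 of 7 windows of lower genes, 2 of 12 of higher genes, 3 of 11 of genes not called and 0 of 3 of genes not tested held one. Windows of the same gene can adjoin or overlap. Counted by gene, a match stood in 2 of 5 lower, 2 of 8 higher and 3 of 10 uncalled genes with a window. No window was held for 2 lower genes, LAMA1 and LAMC3, and for 3 higher genes. A window with a match and a window without one are shown for lower and for higher genes, 5′ to 3′ along the gene, with matches in capitals. ITGA6 (lower, chr2:172427086-172427335, plus strand) has CTATCA, the reverse complement of TGATAG, at its far end, ITGB7 (higher, chr12:53207252-53207501, minus strand) has CTATCT at 225 and 98 bases before the start, and ITGB1 (lower, chr10:32958231-32958480, minus strand) and LAMC1 (higher, chr1:183023170-183023419, plus strand) have none.
ITGA6: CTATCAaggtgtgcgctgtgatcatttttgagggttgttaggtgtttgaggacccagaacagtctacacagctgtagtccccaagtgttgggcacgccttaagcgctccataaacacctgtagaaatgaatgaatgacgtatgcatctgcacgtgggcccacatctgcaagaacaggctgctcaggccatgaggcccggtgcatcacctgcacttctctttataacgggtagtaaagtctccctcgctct
ITGB7: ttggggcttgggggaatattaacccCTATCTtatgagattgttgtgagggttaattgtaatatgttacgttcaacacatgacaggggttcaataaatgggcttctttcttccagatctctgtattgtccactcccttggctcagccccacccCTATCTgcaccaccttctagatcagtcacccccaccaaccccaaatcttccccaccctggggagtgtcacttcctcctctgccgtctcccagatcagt
ITGB1: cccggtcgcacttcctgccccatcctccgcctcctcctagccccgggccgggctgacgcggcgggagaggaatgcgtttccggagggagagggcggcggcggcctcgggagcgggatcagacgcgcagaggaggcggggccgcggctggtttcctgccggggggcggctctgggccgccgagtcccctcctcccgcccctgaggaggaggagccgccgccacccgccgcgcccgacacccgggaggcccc
LAMC1: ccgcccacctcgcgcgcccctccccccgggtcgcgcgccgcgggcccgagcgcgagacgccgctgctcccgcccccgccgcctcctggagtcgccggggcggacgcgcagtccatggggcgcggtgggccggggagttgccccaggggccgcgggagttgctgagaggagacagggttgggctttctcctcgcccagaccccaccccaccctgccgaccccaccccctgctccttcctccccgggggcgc
The ITGA6 and ITGB1 windows shown belong to the outermost of 2 annotated starts each. A window before the inner start held TGATAA at 30 bases in ITGA6 and AGATAG at 172 bases in ITGB1. The matches fell in genes that were lower, higher and not called, and a match is a run of letters, not a measured binding site.

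Subunits for other ligands were called at less than 2-fold. ITGA2, a collagen receptor subunit, fell by 0.68 (SE 0.174, adjusted p = 0.0227), with 5.93 to 6.23 on the siGATA2 arrays and 6.42 to 7.14 on the siControl arrays. ITGA5, the fibronectin receptor subunit, fell by 0.45 (SE 0.122, adjusted p = 0.0292), with 8.56 to 8.85 against 8.91 to 9.28. The gaps between the groups were narrow for both, and the call was lost in 12 of 28 alternative settings for ITGA2 and in 13 for ITGA5. ITGB5, which pairs with ITGAV and binds vitronectin, rose by 0.59 (SE 0.0875, adjusted p = 0.00181), with 12.13 to 12.24 against 11.56 to 11.65. ITGA2B, the alpha subunit of the platelet fibrinogen receptor, was higher by 0.41 (SE 0.121, adjusted p = 0.0381), and this call was lost in 18 of 28 settings. ITGAV, the common RGD-binding alpha subunit, was not called (0.31, SE 0.110, adjusted p = 0.0745), although its ranges, 12.63 to 12.81 and 12.27 to 12.62, did not overlap.

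The other collagen receptor subunits were not called, ITGA1 at -0.53 (adjusted p = 0.368), ITGA10 at -0.74 (adjusted p = 0.312) and ITGA11 at 0.07 (adjusted p = 0.802). The same held for ITGA4 (0.07, adjusted p = 0.849) and ITGA9 (-0.19, adjusted p = 0.603), which bind fibronectin, VCAM1 or tenascin, and for ITGB8 (0.51, SE 0.652, adjusted p = 0.599), a partner of ITGAV in activation of TGF-beta. ITGA10 and ITGB8 illustrate why a mean of 4 arrays was a poor summary for some members. ITGA10 read 7.63 and 7.73 on siGATA2 arrays 1 and 2 but 5.98 and 6.24 on arrays 3 and 4, and 8.56 on siControl array 1 but 7.28 to 7.37 on the other 3. ITGB8 ran the opposite way, 3.95 and 4.34 against 6.13 and 6.12, and 3.34 against 4.59 to 5.47.

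Of the subunits best known from leukocytes, 2 were called. ITGB7, which pairs with ITGA4 or ITGAE on lymphocytes, rose by 0.82 (SE 0.114, adjusted p = 0.00131), with 9.39, 9.40, 9.11 and 9.20 on siGATA2 arrays and 8.62, 8.42, 8.38 and 8.40 on siControl arrays. ITGAX, an alpha partner of ITGB2 on myeloid cells, rose by 0.89 (SE 0.133, adjusted p = 0.00182) from a low level, well above background on 2 of 4 siControl arrays. ITGAE (0.26, adjusted p = 0.378), ITGAM (0.25, adjusted p = 0.439), ITGAL (0.56, adjusted p = 0.481), ITGAD (-0.97, adjusted p = 0.338) and ITGB2 (-0.39, adjusted p = 0.0584) were not called. In the culture measured in bulk, more cells with a transcript and more of it per cell cannot be told apart. The leukocyte markers CD14 and PTPRC were also well above background on all 8 arrays, and their part in these signals was not tested.

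The 4 members left untested stayed near the floor of the array. ITGB3, ITGB6 and LAMB4 were well above background on 0 arrays, and ITGA8 on 1 siGATA2 array. ITGB3 and ITGB6 are the beta subunits that join ITGAV on platelets and endothelium and on injured epithelium, ITGA8 is a kidney and smooth muscle subunit, and LAMB4 is the least studied beta chain. A level under the background gives only an upper bound, so no fold is given for them.

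The division of the arrays by title letter ran through the members about as it did through the array. In 13 of 34 members, or 38.2%, siGATA2 arrays 1 and 2 both lay apart from arrays 3 and 4, with pair means at least 0.5 log2 units from each other, as in 37.9% of all genes. In all 13 of these members siControl array 1 deviated from the other siControl arrays in the same direction, though in ITGAM by a difference that rounds to 0, as in 9174 of the 10888 such genes overall. The largest such gaps among called members were in LAMB3, LAMA3, LAMA5 and LAMB2. When only the 5 arrays with letters D to G were compared, 17 of 18 calls were kept, all but ITGA2, and 7 members were lower and 16 higher, with 19.2% of all genes lower and 23.7% higher. With the letters as a block all 18 were kept, with 19.9% and 25.0% of all genes. The 3 arrays with A or B give 2 against 1, where the spread comes from the close pair only, so calls there say nothing of stability. Among letters D to G the spread likewise comes from close sets only. There siGATA2 arrays 3 and 4 lay a median of 0.0674 apart and siControl arrays 2, 3 and 4 lay 0.0789 to 0.111 apart. With the letters as a block, too, only the spread within letters is left. Both comparisons reuse arrays that gave the 18 calls, so the calls kept are no separate support for them.

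Arrays of a close pair may share more than their treatment, so they were also averaged within letters, which left 2 samples per group. No member and 0 of 28746 genes were then called by limma. At an unadjusted p under 0.05 stood 14 of the 18 in the same direction, beside 4899 of all 28746 genes. The 18 were selected on these same arrays, so that count is no separate support for them. With the letters kept as a block after averaging, 10 of the 18 calls were kept, with 6.32% of all genes lower and 4.54% higher. They were ITGA6, ITGB1, LAMA1, LAMB1 and LAMC3 lower and ITGB4, LAMA5, LAMB2, LAMB3 and LAMC1 higher. These are 10 of the 11 members that changed at least 2-fold, the exception being LAMA3.

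**Figure D3:**
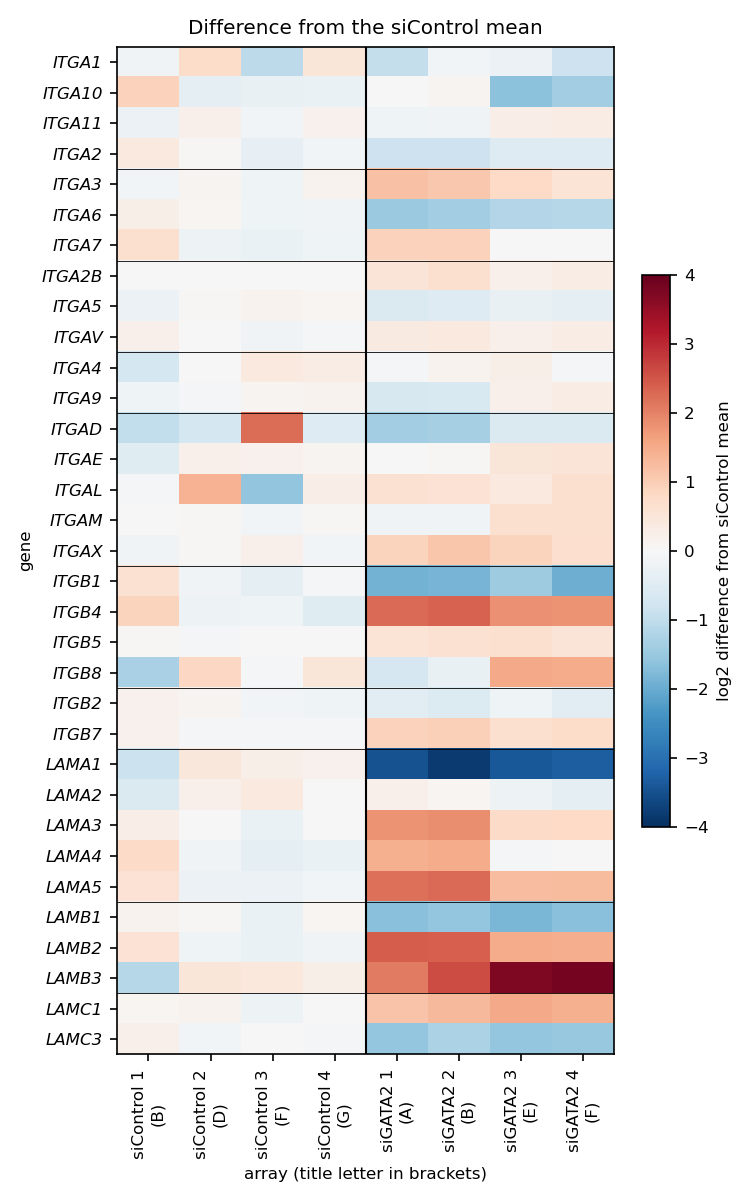
Difference of each array from the mean of the 4 siControl arrays, in log2 units, for 33 of the tested genes in rows grouped by role and the 8 arrays in columns, with the title letter in brackets. Red is higher and blue lower. The blue rows of LAMA1, ITGB1, LAMB1, LAMC3 and ITGA6 and the red rows of LAMB3, ITGB4, LAMB2, LAMA5 and LAMC1 run through all 4 siGATA2 columns, while ITGA10, ITGB8 and LAMA4 change between siGATA2 arrays 2 and 3.

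Downstream of the receptors, genes of the plaque proteins that tie integrins to actin were also called in both directions. Of 40 plaque genes tested, 5 fell and 11 rose, which is 12.5% and 27.5% beside the 14.2% and 12.4% of all genes, with a median log2 fold change of 0.15. FERMT1, the kindlin of epithelia that switches integrins on, fell from between 11.58 and 11.73 to between 9.10 and 9.41 (-2.34, SE 0.106, adjusted p = 1.38e-05). TNS3, a tensin that binds beta subunit tails, fell by 3.03 (SE 0.279, adjusted p = 0.000167), RSU1, a partner of the PINCH adaptor, by 1.33 (adjusted p = 0.00628) and GIT1, a scaffold for paxillin, by 1.09 (adjusted p = 0.00215). With normexp background correction TNS3 was at -1.44. With the mean over probes in place of the brightest one, GIT1 was at -0.53 (limma adjusted p = 0.019).

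NEDD9, a scaffold of the p130Cas family, rose by 2.91 (SE 0.542, adjusted p = 0.00550), with 7.33 to 8.97 against 3.98 to 5.92, and cleared the background on 2 of 4 siControl arrays. It was at 1.77 with normexp background correction. VCL, vinculin, which links talin to actin, rose by 1.19 (adjusted p = 0.000484) and CRK, an adaptor that binds p130Cas and paxillin, rose by 1.00 (adjusted p = 0.00313). Talin, the other activator of integrins, was not called, with TLN1 at -0.33 (adjusted p = 0.198) and TLN2 at -0.62 (adjusted p = 0.0525), both named after their values were seen.

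Among 41 other matrix and receptor partners, 38 were tested. Of these, 4 fell and 8 rose, or 10.5% and 21.1% beside 14.2% and 12.4% of all genes, with a median of 0.22. COL4A6, a chain of the collagen network of the basement membrane, fell from between 8.08 and 8.30 to between 5.29 and 6.36 (-2.38, SE 0.254, adjusted p = 0.000338), and was at -1.43 with normexp. The integrin ligands TNC, tenascin C (-1.24, adjusted p = 0.000819) and FN1, fibronectin (-1.14, adjusted p = 0.000740, and -0.49 with normexp) fell too. SDC1, a syndecan that binds laminin through its sugar chains, fell by 0.91 (adjusted p = 0.000316), while its relative SDC4 rose by 1.25 (adjusted p = 0.000646).

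Of the partners that bind laminin, HSPG2 was at -0.38, DAG1 at 0.04, NID1 at 0.52 and NID2 at 0.80, none of them called and all named after their values were seen. NID1 (SE 0.832) cleared the background on 2 siGATA2 arrays and 1 siControl array. NID2 (SE 0.649) did so on 3 and 2, so both folds are uncertain. BCAM, a receptor for the LAMA5 chain, read 9.07, 9.19, 9.25 and 8.95 against 6.37, 6.28, 6.24 and 6.06, an increase of 2.88 (SE 0.116, adjusted p = 1.27e-05). It cleared the background on 3 of 4 siControl arrays and was at 2.10 with normexp. NTN4, a netrin that binds laminin gamma chains, rose by 3.08 (SE 0.588, adjusted p = 0.00617), from 2.98 to 5.68 on siControl arrays, 2 of 4 well above background, to 6.95 to 8.21, and was at 1.36 with normexp. AGRN, agrin, which binds laminin and dystroglycan, rose by 1.33 (adjusted p = 0.00943). DST, which anchors ITGB4 to keratin, rose by 1.14 (adjusted p = 0.00239), whereas PLEC, its fellow anchor, was at 0.49 (adjusted p = 0.253), as was the tetraspanin CD151 of the same junction at 0.05 (adjusted p = 0.830), these 3 named after their values were seen.

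Scaling to the E1A spike-in probes kept fewer of the higher calls than of the lower ones, among members and among all genes. The median of all genes moved from 0.09 to -0.43, and 5 members were lower and 1 higher, while over all genes 6.57% were lower and 0.491% higher. The calls kept were ITGA6, ITGB1, LAMA1, LAMB1 and LAMC3 as lower and LAMB3 as higher, and ITGB5 changed sign to -0.04. The mean log2 signal of those probes ranged from 13.45 to 13.83 on 7 arrays but was 11.13 on siControl array 1, which that scaling carries into every gene of that array. Without siControl array 1 under the main scaling, 7 members were lower and 11 higher, beside 15.3% and 13.8% of all genes.

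**Figure D4:**
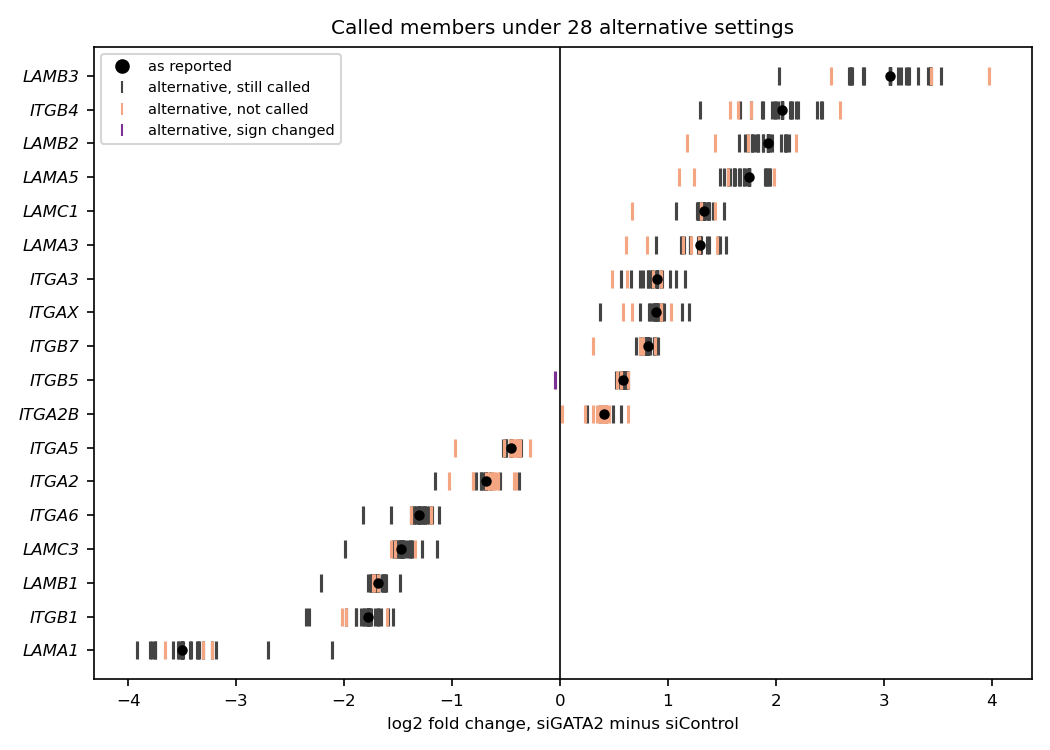
Log2 fold change of the 18 called members as reported (black dots) and under 28 alternative settings (ticks), siGATA2 minus siControl. Dark ticks are settings in which the gene was still called, orange ticks settings in which it was not, and the purple tick is the change of sign of ITGB5 at -0.04 under spike-in scaling. The other 17 genes stay on their side of 0 in every setting.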

How the data were processed

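RNA of LNCaP cells was measured on 8 one-colour arrays, grouped by their labels as siGATA2 or siControl. The authors deposited Agilent Feature Extraction 11.0.1.1 output, in which each spot has a linear, background-corrected intensity. They also deposited log2 values per probe, quantile-normalized per the methods. The array design named in the file headers differs from that in the methods. Here the intensity was put on the log2 scale, averaged over a probe's unflagged spots and quantile-normalized (limma 3.58.1, R 4.3.3). RefSeq accessions gave the gene names, with 26364 of 27902 matched to a symbol. Unannotated probes and probes whose mean log2 signal was under 3 were left out, and a gene was read from its brightest probe, chosen again in each setting. Groups were compared with lmFit and eBayes and Benjamini-Hochberg adjustment at 0.05, with 2 as the fold threshold and a log2 fold change as siGATA2 minus siControl. Levels of different probes were not compared. Arrays have no read depth, and their number limits the precision.

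The genes named are the members and, from each context list, the 4 called genes with the largest fall and rise, and VCL. The values of 1 member and of 2 other genes these rules name are not reported here, though they stay in the counts. The members and lists were chosen with earlier results of these data known. Alternatives changed scaling, background correction, the filter on dim probes, the probe for a gene, the source of values, the test, blocks and the arrays used. The 5 by title letter, of the 28 run, were chosen after seeing the data. For normexp, with an offset of 50, the median signal served because mean signals were not among the columns. Simulated data with known changes were used to check the script for the limma fit. The qRT-PCR, protein and tumour data of the study were not analysed here.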

Additional observations from a re-analysis of the deposited data

Results flagged for a closer look

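Among 102 groups of 4 arrays, 12 had an array far from the other 3 by Dixon's criterion, which chance meets in about 1 group in 20, and 10 of the 12 were siControl array 1. The values in brackets are the gap to the nearest array over the range of the group.

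On siControl array 1 the signal stood above the others for ITGA10 (0.927), with 8.56 against 7.28 to 7.37, for ITGA7 (0.898), with 10.21 against 9.32 to 9.41, for ITGB7 (0.838), with 8.62 against 8.38 to 8.42, for LAMA5 (0.831), with 11.59 against 10.77 to 10.91, and for LAMB2 (0.852), with 14.94 against 14.09 to 14.22. It stood below them for ITGAE (0.861), with 11.77 against 12.37 to 12.47, for LAMB3 (0.850), with 4.58 against 5.97 to 6.22, for TNS3 (0.898), with 6.65 against 7.68 to 7.79, for NEDD9 (0.864), with 3.98 against 5.66 to 5.92, and for CRK (0.831), with 10.49 against 10.84 to 10.91. siControl array 3 stood apart for ITGAD (0.857), with 8.41 against 5.20 to 5.66, and siGATA2 array 2 for LAMC3 (0.871), with 8.56 against 8.30 to 8.33.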

How the results depend on the processing

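Of the 18 calls, 16 were kept with scaling to the 75th percentile (lost ITGA2 and ITGA2B), 17 with normexp correction (lost ITGA2B), 14 with the row of the slide as a block (lost ITGA2, ITGA2B, ITGA5 and LAMA3), 17 with an intensity trend (lost ITGA2B), 16 with siControl arrays 2 and 4 only (lost ITGA2B and LAMA3) and all 18 with the deposited log2 values, without the filter, with a filter on background, with the mean over probes, with the methods' t-test and with array weights. LAMA3 lost its call in 7 of 28 settings. The median log2 fold change of members was 0.45 at the 75th percentile, 0.06 with normexp, 0.19 over the mean of probes, 0.07 with array weights, 0.01 with siControl arrays 2 and 4 only and 0.51 within letters A and B.

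With E1A spike-in scaling 1 member was higher, also at 2-fold, the median was -0.15, ITGAV was at -0.33 and ITGB5 at -0.04. Plaque genes then gave 3 lower and 1 higher and partners 1 lower and 2 higher, beside 6.57% of all genes lower and 0.491% higher. Array weights gave 10 plaque genes lower, and 7 partners lower and 14 higher, beside 19.6% of all genes lower and 20.2% higher. The slide row block gave 4 plaque genes higher, beside 7.6% of all genes higher. Row 1 alone held 3 siGATA2 arrays and 1 siControl array, and row 2 alone held siGATA2 array 4 and siControl arrays 1, 2 and 3. No call of a member, plaque gene or partner was kept in either row, where hardly any gene of the array was called. None of the 18 called members changed sign there. In row 1 the median of members was 0.07. GIT1 was at 0.18 in row 1 and 0.28 within letters A and B, where another probe was the brighter one, and the probe reported gave -1.27 and -0.66. The single array of a group in a row is assumed to vary like the others.

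The letter block gave 17 members higher, 8 plaque genes lower and 10 partners lower, beside 5723 lower and 7195 higher of 28746 genes. Letters D to G alone gave 10 plaque genes lower, 7 partners lower and 15 higher, beside 19.2% of all genes lower and 23.7% higher. Letters A and B alone gave 17 members higher, 8 plaque genes lower and 8 partners lower, beside 6277 lower and 7206 higher of 28225 genes. Averaged within letters, limma called 0 in each list and direction, also at 2-fold, with 4899 of all genes at an unadjusted p under 0.05. Averaged with the letter block, 5 members were higher, 3 plaque genes lower and 6 higher, and 3 partners higher. Of all genes 6.32% were lower and 4.54% higher there. The causes were not tested.

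Leaving out an array in turn gave 5 to 8 members lower and 10 to 12 higher, 5 lower and 6 to 8 higher at 2-fold, medians of 0.17 to 0.32, 5 to 7 plaque genes lower and 6 to 11 higher, and 4 to 5 partners lower and 7 to 8 higher. Over all genes these settings called 11.2% to 15.3% lower and 8.97% to 13.8% higher. The member calls lost were among ITGA2, ITGA2B and ITGA5. Without siGATA2 array 1 or 2 or siControl array 2 all 3 were lost, without siGATA2 array 4 or siControl array 3 or 4 ITGA2B and ITGA5, and without siControl array 1 ITGA2B. With the replicate block, 6 members were lower and 11 higher, beside 12.8% and 11.8% of all genes. The calls of ITGA2 and ITGA2B were then lost. Arrays with the same number deviated together with correlations of 0.54, -0.31, 0.17 and 0.23, so the numbers were not taken to pair them. Signal over background was lowest on siControl arrays 1 and 3, which limits dim members.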
